A study of Mus musculus with 12 samples.

Results

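Retinal injury sets off a small, well known set of genes, and 10 of them are described here in mice that lack the M2 isoform of pyruvate kinase in rods: Edn2, Lif, Fgf2, Ednrb, Stat3, Cebpd, Bcl3, Socs3, Gfap and Serpina3n. They were taken by gene symbol from a table of 56748 genes, and each symbol matched 1 gene. RNA was sequenced from whole-retina lysate (called retina here) and from polyribosomes pulled down from that tissue through the Ribo-Tag, an epitope-tagged ribosomal protein that Cre switches on (called rods here). Control mice carried 1 floxed Pkm2 allele (RiboTag; Pkm2fl/+; i75-Rod-Cre, labelled Pkm2_Rodhet and named wt in the titles), and Pkm2 Rodko mice carried 2 (RiboTag; Pkm2fl/fl; i75-Rod-Cre). All groups therefore carried the rhodopsin-driven Cre and, by the study's methods, were homozygous for the Ribo-Tag, so no group was free of Cre and the controls were heterozygous, not wild type. Tissue was flash-frozen after cycloheximide perfusion and polyA RNA was sequenced. The age is 2 weeks in the series text and 2 months in the methods. Each of the 4 groups had 3 libraries. Neither source says whether a library was 1 mouse, so the p-values below measure the spread between these libraries.

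When photoreceptors are damaged they are known to make the peptide endothelin 2 (Edn2), and Müller glia make the cytokine leukemia inhibitory factor (Lif). Lif acts through the gp130 receptor and the transcription factor Stat3, which switches on its own inhibitor Socs3 and, in glia, the intermediate filament Gfap. Raised Gfap, Serpina3n, Fgf2 and Edn2 are widely used as signs of gliosis and of stressed photoreceptors, and the comparison of genotypes in the retina asks whether such signs accompany loss of Pkm2 from rods.

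Recovered totals ran from 13458890 to 22790074 reads per library. Pkm, the targeted gene, was lower in Pkm2 Rodko than in control libraries in rods (log2 fold change -1.20, SE 0.084, limma adjusted p = 5.36e-05) and in retina (-0.65, SE 0.074, adjusted p = 0.0219). Against the retina, all 10 rod markers were higher in control rods (median log2 difference 1.96) and all 10 Müller glia markers were lower (median -2.91). Glul, the glutamine synthetase of Müller glia, still had a mean deposited value of 4512 ± 674 (SD, n = 3) in control rods. Whether it was carried over from non-rod cells was not tested. The Y-linked Ddx3y, looked up after other values had been seen, was 0 in control retina libraries 1 and 2, lay at 293.4 in control library 3 and 260.6 in Pkm2 Rodko library 1, and at 484.7 and 483.6 in Pkm2 Rodko libraries 2 and 3. The share of male tissue thus differed between the genotypes, and its part in the results was not tested.

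Stat3 binds the palindrome TTCNNNGAA, and the promoters of the members were searched for it. A link between the palindrome and the members' levels was not tested. RefSeq promoter windows on build GRCm38.p6, of 300 bases each, were found for 9 members, and none was found for Cebpd. The palindrome, read on both strands, was present in 2 of the 9, beside 8.30% of all 32851 windows, and the stricter TTCCNGGAA was present in 1 of the 9, beside 1.15%. Every TTCCNGGAA is also a TTCNNNGAA. Gfap held the stricter form from 2 bases before the gene's start onward, shown as 30 bases of chr11:102897183-102897212 (minus strand), and Socs3 held 1 match 154 bases before its start, shown within the 250 bases ahead of the start, chr11:117969367-117969616 (minus strand). The same 250 bases of Edn2, chr4:120160956-120161205 (plus strand), are shown for the member with the widest spread between libraries, and held no match. Capitals mark the palindrome.
Gfap: atgggggtgcTTCCAGGAAgtcaggggcag
Socs3: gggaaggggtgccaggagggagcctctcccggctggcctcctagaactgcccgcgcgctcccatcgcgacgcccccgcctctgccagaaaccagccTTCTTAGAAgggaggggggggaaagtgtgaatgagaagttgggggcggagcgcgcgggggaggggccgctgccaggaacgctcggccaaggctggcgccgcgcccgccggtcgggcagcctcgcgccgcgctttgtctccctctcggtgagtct
Edn2: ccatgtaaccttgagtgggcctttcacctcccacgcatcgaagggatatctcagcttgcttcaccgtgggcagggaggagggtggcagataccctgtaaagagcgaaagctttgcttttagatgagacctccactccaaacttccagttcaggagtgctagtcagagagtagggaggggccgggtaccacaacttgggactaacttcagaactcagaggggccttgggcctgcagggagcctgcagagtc
The letters describe these windows only, and say nothing about binding in these libraries.

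None of the 10 members passed the test between genotypes in the retina. In limma with a variance trend on log2(deposited value + 1), 0 of 10 passed an adjusted p of 0.05, where 1 of 25590 genes did (Pkm, 0.00391% of genes tested). Adjusted p-values of the members lay between 0.947 and 0.997. The estimates were below 0 for 8 members, with a median of -0.18, beside 51.0% of all genes below 0 and a median of -0.0045 over all genes. Markers of several cell types lay on the same side, with 0 called: 10 of 10 Müller glia markers were below 0 (median -0.15), as were 9 of 10 microglia markers (median -0.31), 8 of 8 bipolar cell markers (median -0.14) and 6 of 6 endothelial markers (median -0.14), but 1 of 10 rod markers (median 0.10). Amacrine and ganglion cell markers had 6 of 8 below 0 each, with smaller medians of -0.05 and -0.03. Pigment epithelium markers had 4 of 8 below 0 (median 0.19), and astrocyte markers 4 of 5 (median -0.31). Their part in the members' estimates was not tested. At an unadjusted p under 0.05 there was 1 member, Lif, and there were 1069 genes in all. edgeR on the recovered reads called 0 members as well. No member had its 2 genotypes free of overlap in the retina, a pattern that 9.29% of all genes tested showed. What the members did show was a wide spread between libraries of the same genotype, in which control library 2 was the lowest of the 3 controls for every member.

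**Figure D1:**
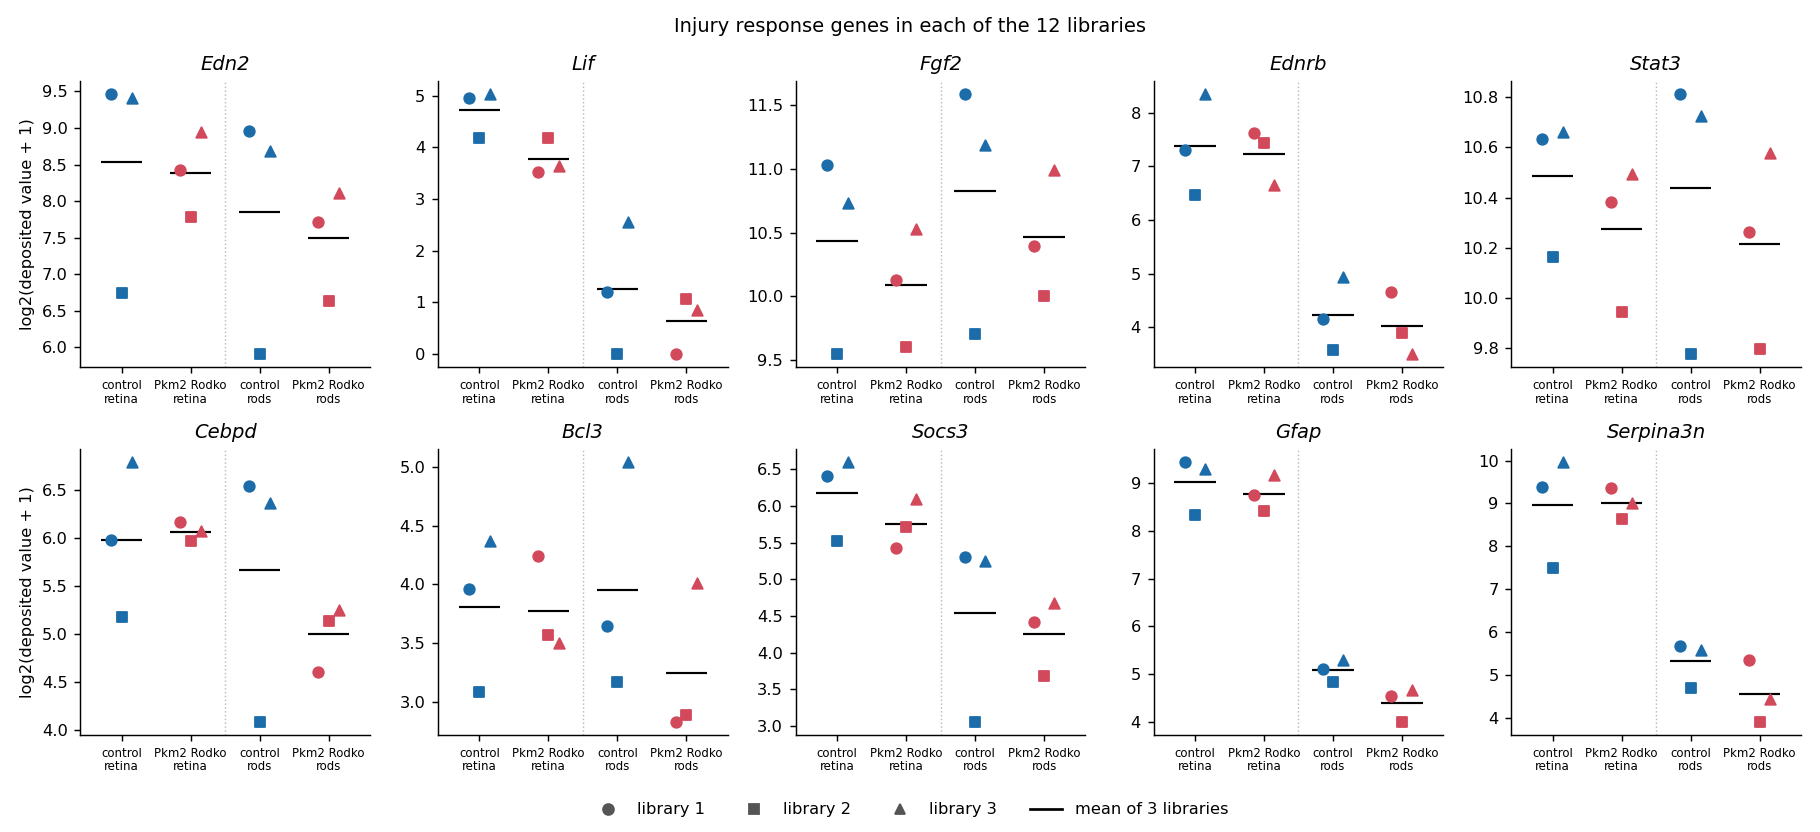
Each panel plots 1 member as log2(deposited value + 1) in the 12 libraries, with the marker shape giving the library's number, blue for control, red for Pkm2 Rodko and a bar at the mean of 3. Control library 2, the blue square, is the lowest control in every panel and both fractions; retina and rod values were scaled separately by the authors, so heights compare within a fraction only.

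Edn2, the ligand that injured photoreceptors release, had deposited values of 705.2, 106.6 and 677.7 in control retina libraries 1 to 3 and of 343.9, 219.8 and 491.6 in Pkm2 Rodko retina libraries 1 to 3. Control libraries 1 and 3 lay above all Pkm2 Rodko libraries and control library 2 below them all, so the genotypes overlapped from end to end. Such a place of control libraries 1 and 3 was not counted over all genes. For Edn2 and the members below it is therefore no support for a difference. The mean was 496.5 ± 338 in controls and 351.8 ± 136 in Pkm2 Rodko (SD, n = 3 each), and the log2 fold change was -0.15 (SE 0.54, 95% confidence interval -1.33 to 1.02). The highest control value was 6.62 times the lowest, with 724 reads behind the highest and 100 behind the lowest. Lif, the glial cytokine that lies upstream of Stat3, was scarce, with 30.2, 17.1 and 31.7 in control and 10.5, 17.2 and 11.4 in Pkm2 Rodko retina. Pkm2 Rodko library 2 just exceeded control library 2, and the other 2 lay below all controls. Its log2 fold change of -0.94 (SE 0.37, interval -1.75 to -0.14) was the farthest from 0 among the members, but with an adjusted p of 0.947 it did not pass the test, and no retina library held more than 37 Lif reads.

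Fgf2, a growth factor that protects photoreceptors, was read at 2085.4, 748.2 and 1695 in control retina and 1118.2, 779.6 and 1471.5 in Pkm2 Rodko retina. As for Edn2, both remaining controls lay above every Pkm2 Rodko library, and control library 2 lay at the bottom. The log2 fold change was -0.35 (SE 0.30, interval -1.0 to 0.30). Where exons are annotated in GENCODE vM21, Fgf2 shares sequence with the opposite-strand gene Nudt6 and with Gm43439 on its own strand, and Stat3 with Stat5a, Cebpd with Spidr and Bcl3 with Gm16175 on the opposite strand. Strand use in the counting is not given in the sources used here, so the reads of these pairs cannot be told apart.

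Ednrb, the endothelin receptor B found on Müller glia and other non-neuronal cells, had 157.8, 87.4 and 324.2 in control and 196.2, 170.9 and 99.5 in Pkm2 Rodko retina. Control library 3 stood highest and control library 2 lowest, with all Pkm2 Rodko libraries between them. The log2 fold change was -0.14 (SE 0.37, interval -0.94 to 0.66).

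Stat3, the transcription factor that carries the gp130 signal, was the steadiest member, at 1587.7, 1145.7 and 1618.6 in control and 1332.4, 983.9 and 1440.6 in Pkm2 Rodko retina. Control libraries 1 and 3 lay above all Pkm2 Rodko libraries, and library 2 was the lowest of its genotype on both sides. The log2 fold change of -0.21 had an interval of -0.54 to 0.11 (SE 0.15). Cebpd, an acute-phase transcription factor, was read at 62.3, 35.2 and 109.8 in control and 70.7, 61.5 and 66.3 in Pkm2 Rodko retina, the latter all inside the control range. The log2 fold change was 0.08 (SE 0.32, interval -0.62 to 0.78). Bcl3, an NF-kappaB cofactor, rested on 7 to 23 reads a library and had 14.6, 7.5 and 19.7 in control and 17.9, 10.9 and 10.3 in Pkm2 Rodko retina. The difference in log2 units was -0.04 (SE 0.44, interval -0.99 to 0.91).

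Socs3, the feedback inhibitor that Stat3 induces, was read at 83.8, 44.8 and 96.1 in control and 42.2, 51.5 and 67.5 in Pkm2 Rodko retina. Control libraries 1 and 3 exceeded every Pkm2 Rodko library, while control library 2 fell among them. The log2 fold change was -0.43 (SE 0.29, interval -1.05 to 0.20). Gfap, the filament by which gliosis is most often scored, had 695.5, 322.9 and 628.8 in control and 431.5, 342.8 and 571.7 in Pkm2 Rodko retina, a mean of 549.1 ± 199 against 448.7 ± 115 (SD, n = 3 each). No Pkm2 Rodko library exceeded control libraries 1 or 3, and the log2 fold change was -0.25 (SE 0.24, interval -0.77 to 0.28). Serpina3n, a secreted protease inhibitor of reactive glia, was read at 672.1, 180.1 and 1001.9 in control and 659.3, 396.1 and 512.2 in Pkm2 Rodko retina. Its controls enclosed all Pkm2 Rodko libraries, with a log2 fold change of 0.05 (SE 0.44, interval -0.91 to 1.0). Serpina3n belongs to a cluster of closely similar genes, and how reads shared within the cluster were assigned is not given in the sources used here.

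**Figure D2:**
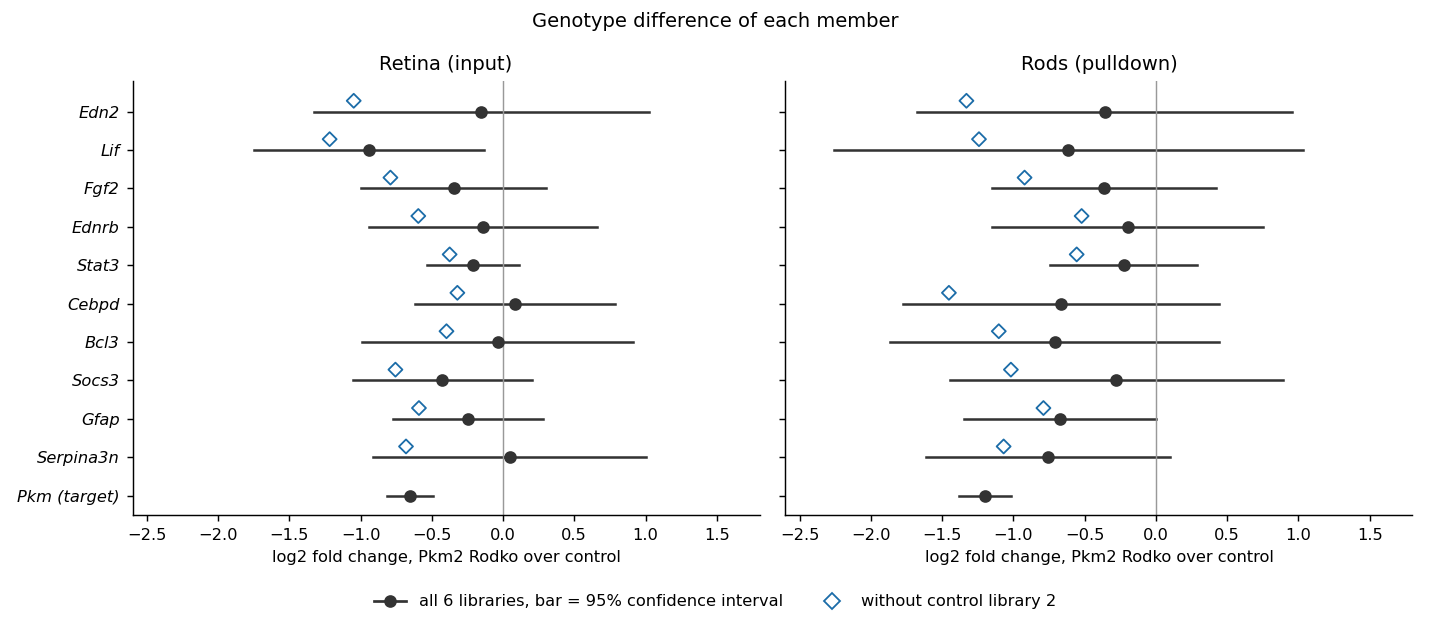
The log2 fold change of Pkm2 Rodko over control is plotted for each member in retina and in rods, with bars for the 95% confidence interval over 6 libraries and open diamonds for the estimate without control library 2; Pkm, the targeted gene, is drawn for scale without a diamond. Among the members in retina, only the bar of Lif lies wholly below 0 (-1.75 to -0.14), and every diamond lies to the left of its point.

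Because control library 2 moved these averages, each value was also fitted without it. In the retina the log2 fold changes were then Edn2 -1.05 (adjusted p = 0.352), Fgf2 -0.79 (adjusted p = 0.398), Gfap -0.59 (adjusted p = 0.444), Serpina3n -0.68 (adjusted p = 0.444), Socs3 -0.76, Stat3 -0.37, Ednrb -0.59, Lif -1.22, Bcl3 -0.40 and Cebpd -0.32. Since this library was the lowest control for every member, leaving it out had to lower every estimate, so these directions are no support for a difference, and 0 of 10 passed the adjusted threshold. Leaving out other single libraries moved estimates the other way, up to 0.31 for Edn2, 0.55 for Serpina3n, 0.49 for Cebpd and -0.05 for Fgf2. With both libraries numbered 2 left out, an alternative chosen after the values were seen, Edn2 had -0.75, Fgf2 -0.55, Gfap -0.41 and Stat3 -0.21, again with 0 members called (adjusted p = 0.765 for these 4). No fit that left out 1 library gave a called member in either direction.

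In rods the members were below 0 in Pkm2 Rodko for 10 of 10, again with 0 called, where 4 of 20658 genes were (0.0194%). Adjusted p-values lay between 0.932 and 0.959, and the median log2 fold change of -0.49 compares with 0.0060 over all genes tested. None reached an unadjusted p of 0.05, which 986 genes did, and edgeR on the recovered reads called 0 members. Markers of several non-rod cell types were also lower in these Pkm2 Rodko rod libraries: the median log2 fold change was -0.32 over 10 Müller glia markers, all 10 below 0, -0.49 over 8 bipolar markers and -0.43 over 8 ganglion cell markers, with 0 called. Over 8 pigment epithelium markers the median was -0.08, with 5 below 0. Whether carried-over non-rod RNA shaped the members' values in rods was not tested.

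Gfap had 33.3, 27.7 and 38.2 in control rods and 22.3, 15 and 24.6 in Pkm2 Rodko rods. It was the 1 member of 10 whose genotypes did not overlap in rods, beside 9.89% of all genes tested, and it rested on 14 to 38 reads a library (log2 fold change -0.67, SE 0.31, interval -1.35 to 0.0026, adjusted p = 0.932). Edn2 was read at 497.2, 59.1 and 409.1 in control rods and 209.8, 98.6 and 275.7 in Pkm2 Rodko rods, with the spread of the retina repeated (log2 fold change -0.36, SE 0.61, interval -1.68 to 0.96). Fgf2 had 3066.6, 836.1 and 2331.6 in control rods and 1344.2, 1025.8 and 2035.7 in Pkm2 Rodko rods (-0.36, SE 0.36, interval -1.15 to 0.42). Again the 2 high controls lay above all Pkm2 Rodko libraries and control library 2 below them, an order not counted over all genes in rods either.

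Stat3 was read at 1797.9, 875.5 and 1692 in control rods and 1228.7, 887.5 and 1528.8 in Pkm2 Rodko rods (-0.23, SE 0.24, interval -0.74 to 0.29). Cebpd had 92.3, 16 and 81.3 in control rods and 23.3, 34.3 and 37.2 in Pkm2 Rodko rods (-0.66, SE 0.51, interval -1.77 to 0.44). Both showed control library 2 beneath every other rod library, if narrowly for Stat3. Socs3 was read at 38.4, 7.3 and 37 in control rods and 20.3, 11.8 and 24.6 in Pkm2 Rodko rods (-0.28, SE 0.54, interval -1.45 to 0.89). Serpina3n had 50, 24.8 and 46.8 against 39.5, 13.9 and 20.6 (-0.76, SE 0.40, interval -1.61 to 0.10), with Pkm2 Rodko library 2 the lowest at 13 reads. Bcl3, Ednrb and Lif were near the floor of rods, with at most 26, 24 and 4 reads a library. Without control library 2 the estimates in rods were -1.33 for Edn2, -0.92 for Fgf2, -1.45 for Cebpd and -0.56 for Stat3, with adjusted p = 0.547 for Cebpd, 0.787 for the other 3 and 0 of 10 called. The lower values again follow from leaving out the lowest control, and leaving out other single libraries gave up to 0.20 for Edn2 and 0.015 for Fgf2.

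The genotype difference was not shown to differ between rods and retina for any member. In a limma fit of the 4 group means on reads scaled by TMM over 12 libraries, 0 of 10 members and 0 of 25584 genes (0% of genes tested) passed the adjusted threshold for the difference of the differences, while in this fit 1128 genes, none of them a member, had an unadjusted p under 0.05. edgeR likewise gave 0. The estimates were -0.01 for Fgf2 (interval -1.30 to 1.28), -0.0038 for Stat3 (-0.75 to 0.74), -0.20 for Edn2 (-2.44 to 2.04) and -0.42 for Gfap (-1.26 to 0.42). With genotype and number as a block of 1 rod and 1 retina library, 0 members and 0 genes were called, and the intervals narrowed to -0.56 to 0.16 for Edn2, -0.25 to 0.23 for Fgf2 and -0.28 to 0.28 for Stat3. Serpina3n then lay at -0.80 (interval -1.48 to -0.12), which missed the threshold with a limma adjusted p of 0.758 (unadjusted p = 0.0246). In rods it rested on 34 to 39 reads a library in controls and 13 to 39 in Pkm2 Rodko mice.

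The members varied widely between libraries of the same genotype. In the retina all 10 had a pooled within-genotype SD above the median of the 17541 genes that averaged 10 or more, and 7 of them were above 90% of those genes. Edn2 ranked 113 of 17541 (SD 1.17 log2 units, beside a median of 0.16) and Serpina3n ranked 209 (SD 0.95), while Stat3 was the least variable (SD 0.29, above 75.3% of genes). In rods 9 members reached a mean of 10, all above the median of 14202 genes, with Edn2 at rank 66 (SD 1.31, beside a median of 0.18), Cebpd at rank 129 and Socs3 at rank 141. Behind these values stood 81 to 790 reads a library for Edn2, 702 to 2570 for Fgf2, 6 to 26 for Bcl3, 0 to 37 for Lif and, in rods, 10 to 31 for Socs3. The share of counting error in the spread was not tested.

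The spread was shared between the members. Control library 2 was the lowest of 3 controls for 10 of 10 members in the retina and for 10 of 10 in rods, a pattern noticed in these data and given as a count. Over all genes it was the lowest in 34.8% of those tested in retina, in 33.8% in rods and in both fractions in 16.1% of 20299. It was also the lowest of all 6 libraries for 7 members in the retina and 5 in rods, which was not counted over all genes. The highest of the 6 was a control library for 10 of 10 members in each fraction, beside 53.2% of genes in retina and 49.9% in rods. Among Pkm2 Rodko libraries, library 2 was the lowest for 6 members in each fraction, beside 30.6% of genes in retina and 27.2% in rods. Library 3 was the highest for 5 members in retina and 7 in rods, without a count over all genes. Control library 2 was the deepest of all rod libraries, at 22790074 reads, and had 16695464 reads in the retina. The part of depth in this order was not tested.

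Same-numbered rod and retina libraries moved together. Over 14100 genes, deviations from the group mean correlated between the rod and retina library of the same genotype and number with r from 0.227 to 0.464. Every rod library correlated best with the retina library of its own number, so the numbers pair the fractions, which the labels do not state. By the study's methods both fractions came from the same retinal tissue. The rod and retina values of a pair need therefore not be independent. Correlations with every other number were below 0, which is no further support, since centring on the mean of 3 libraries pushes them there. Across the 6 pairs the retina value of Edn2 had the same order as the rod value (Pearson r = 0.99, exact permutation p = 0.00139, adjusted p = 0.00694 over 10 members; Spearman rho = 1, exact p = 0.00278, adjusted p = 0.0139), and without the 2 libraries farthest from the median r was 0.98. Fgf2 also kept its order (r = 0.99, rho = 1, with the same exact permutation p-values, and r = 0.997 without the farthest 2). Stat3 (r = 0.96, exact permutation p = 0.00556, adjusted p = 0.0174; rho = 0.89, exact p = 0.0333, adjusted p = 0.0667; r = 0.95 without the farthest 2) and Ednrb (r = 0.94, exact permutation p = 0.00694, adjusted p = 0.0174; rho = 0.89, exact p = 0.0333, adjusted p = 0.0667; r = 0.87) followed. The Spearman values of these last 2 missed 0.05 after adjustment. For Gfap, Lif, Socs3, Bcl3, Cebpd and Serpina3n, adjusted p-values of r ran from 0.108 to 0.431. The same order of the 3 libraries in rods and retina was seen for 5 of 10 members in controls (24.5% of 16494 genes) and for 7 of 10 in Pkm2 Rodko mice (26.2%). Within genotypes, on deviations from each genotype's mean with pairs exchanged inside each genotype (36 arrangements, smallest possible p = 0.0278), r was 0.99 for Edn2 and for Fgf2 (exact permutation p = 0.0278 each), 0.97 for Stat3 and 0.94 for Ednrb (exact permutation p = 0.0556 each). Adjusted over 10 members these 4 had p = 0.111 by the exact permutation test, and no member passed 0.05.

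**Figure D3:**
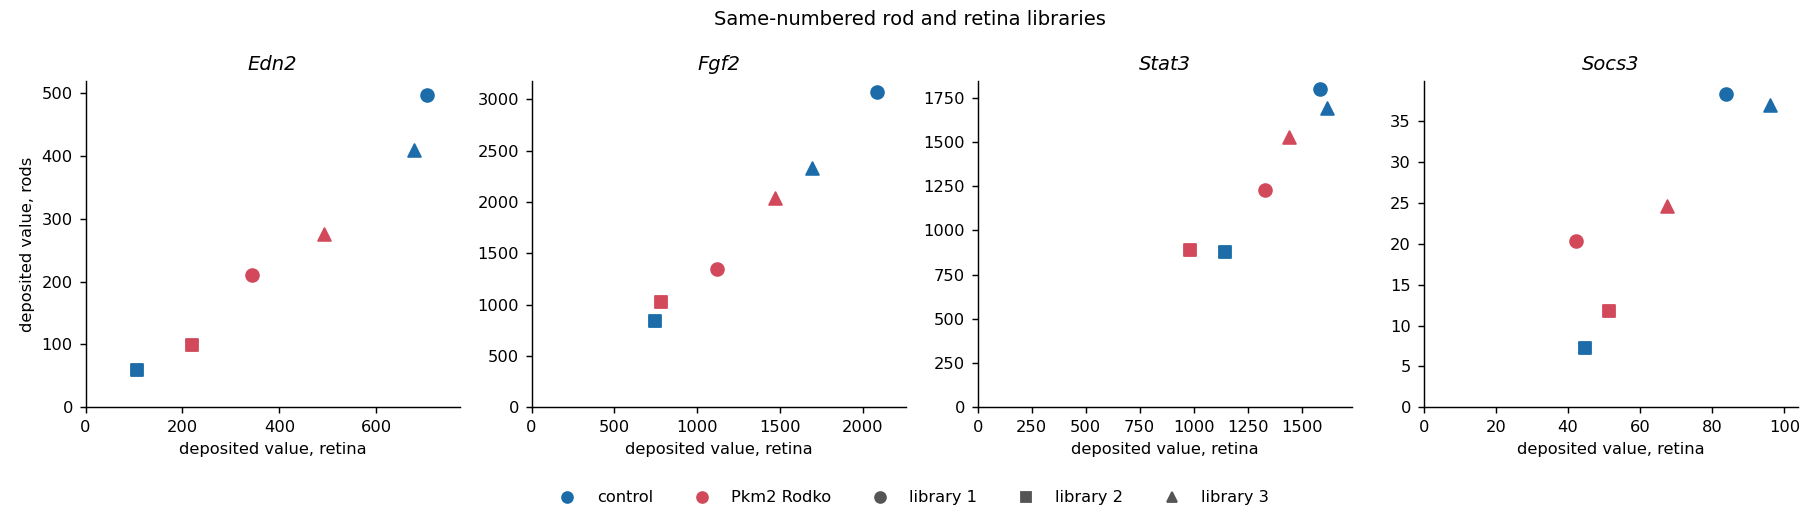
Deposited values of Edn2, Fgf2, Stat3 and Socs3 are plotted with the retina library on the horizontal axis and the same-numbered rod library on the vertical axis, blue for control, red for Pkm2 Rodko and marker shapes for the number. Edn2 and Fgf2 form a single rising series from control library 2 to control library 1, in which the Pkm2 Rodko libraries lie inside the control range.

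Set against control retina, control rods held less of 4 members. Both fractions came from the same tissue, so these differences compare RNA in the pulldown with RNA in the lysate, not numbers of cells. On the TMM scale 4 members were lower in rods: Gfap (log2 difference -3.36, SE 0.28, adjusted p = 4.64e-08), Lif (-3.07, SE 0.64, adjusted p = 0.000678), Serpina3n (-3.05, SE 0.50, adjusted p = 7.47e-05) and Ednrb (-2.58, SE 0.46, adjusted p = 0.000176). Over all 25584 genes 35.5% were lower and 23.5% higher in rods, and the median gene lay at -0.37. The 4 members lay near the Müller glia markers (median -2.91, range -3.69 to -2.26). Other cell types that are not rods had like medians, at -3.13 for bipolar, -3.02 for amacrine, -3.02 for ganglion, -3.03 for microglia, -2.90 for endothelial, -2.80 for astrocyte and -2.36 for pigment epithelium markers, so this level is not particular to glia. The same 4 were lower in Pkm2 Rodko rods (Gfap -3.79, Serpina3n -3.85, Lif -2.80, Ednrb -2.63), where 35.1% of genes were lower and 23.9% higher.

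The other 6 members did not pass this fit: Fgf2 0.99 (SE 0.43, adjusted p = 0.0593), Stat3 0.55 (SE 0.25, adjusted p = 0.0697), Socs3 -1.07 (SE 0.51, adjusted p = 0.0864), Bcl3 0.70, Cebpd 0.26 and Edn2 -0.10 (SE 0.74). Since rods and retina pair by number, the fit was repeated with genotype and number as a block of 1 rod and 1 retina library. With this block Fgf2 was higher in rods (0.99, SE 0.081, limma adjusted p = 8.96e-09), Stat3 was higher (0.55, SE 0.094, adjusted p = 7.11e-05) and Socs3 was lower (-1.07, SE 0.33, adjusted p = 0.00982). That made 7 members called in place of 4. The share of all genes called with this block is not set beside that count, so the rise is no result about the members. The SE of Edn2 dropped from 0.74 to 0.12, and its difference of -0.10 had an interval of -0.35 to 0.16. Directions near 0 depended on the scale: under scaling by total reads, which put the median gene at -0.76, Stat3 lay at -0.0030 and Cebpd at -0.28, and on the deposited values, which put it at -0.80, they lay at -0.05 and -0.32. Stat3 and Cebpd lay above the median gene under all 4 scalings, while their sign against 0 followed the shift of that median. Fgf2 kept its direction under all 4 scalings, at 0.44 by total reads and 0.39 as deposited. edgeR on the recovered reads called Fgf2 and Stat3 higher without the block.

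**Figure D4:**
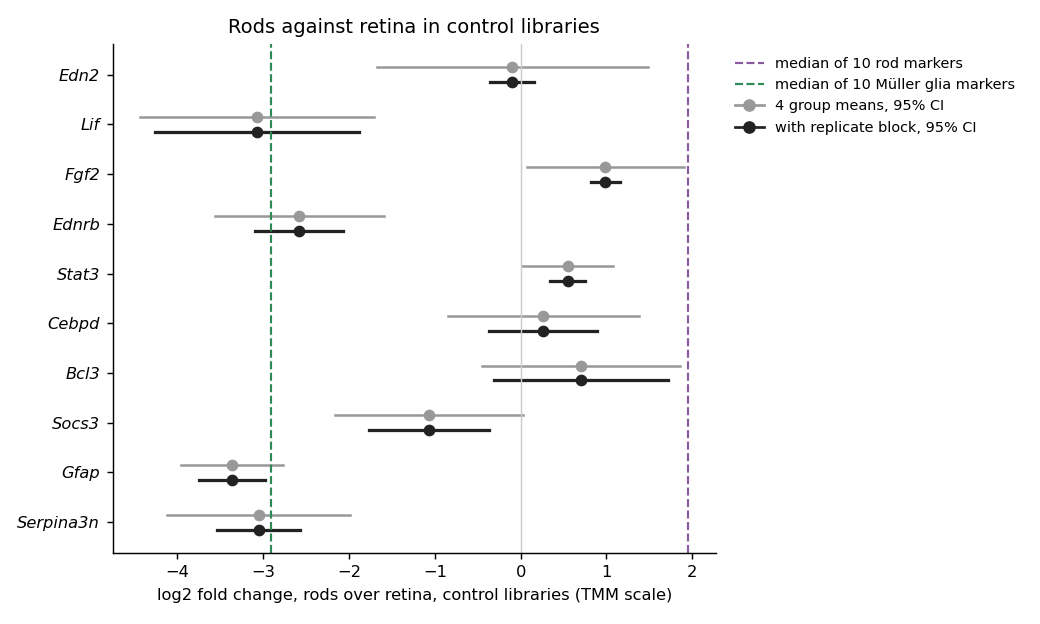
The log2 difference of control rods over control retina on the TMM scale is plotted for each member with its 95% confidence interval, in grey for the fit of 4 group means and in black for the fit with genotype and number as a block; dashed lines mark the medians of 10 rod markers (1.96) and 10 Müller glia markers (-2.91). Gfap, Lif, Serpina3n and Ednrb lie by the Müller glia line, where the medians of other cell types that are not rods (-3.13 to -2.36) also fall, and no member's estimate reaches the rod line.

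Compared per length, as reads per kilobase of annotated exon scaled to each library's total (RPKM), Edn2 (19.5 ± 13.3), Serpina3n (17.2 ± 11.6) and Fgf2 (12.7 ± 5.87) had the highest levels in control retina (SD, n = 3), and these 3 overlapped. Stat3 (8.69 ± 1.68) and Gfap (7.44 ± 2.75) came next and overlapped as well, followed by Ednrb (2.55 ± 1.65), Socs3 (1.48 ± 0.543) and Cebpd (1.06 ± 0.586). Lif (0.346 ± 0.109) and Bcl3 (0.322 ± 0.145) were lowest. In Pkm2 Rodko retina Serpina3n (14.3 ± 3.43) and Edn2 (13.6 ± 5.09) led, and their ranges overlapped. In control rods Fgf2 (17.9 ± 9.58), Edn2 (12.8 ± 9.16) and Stat3 (8.94 ± 2.97) had the highest means, and their ranges overlapped. Serpina3n lay at 1.15 ± 0.372 and Gfap at 0.460 ± 0.0662. Pkm2 Rodko rods kept Fgf2, Edn2 and Stat3 on top (12.4 ± 4.28, 7.64 ± 3.48 and 7.32 ± 1.90), again with overlapping ranges. Lengths come from GENCODE vM21, which need not be the annotation the authors counted on.

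Genes of the same pathways, listed from general knowledge, did not pass the test between genotypes either. Over all genes tested, 0.00391% passed in retina and 0.0194% in rods, with median log2 fold changes of -0.0045 and 0.0060. Not passing so strict a threshold does not show that a gene was unchanged. Of the gp130, JAK and STAT genes 0 of 20 tested passed in retina and 0 of 18 in rods, with median log2 fold changes of -0.05 and -0.04. Il6st, which encodes gp130, had 2790.6, 2062.3 and 2708.9 in control and 2317.7, 2449 and 2732.7 in Pkm2 Rodko retina, while Lifr, the receptor of Lif, was even across genotypes (1539 ± 35.4 against 1668 ± 132, SD, n = 3). Cntf, a ligand of the same receptor family, stayed at or below 4.3 in every library. Of other genes that Stat3 is known to induce, 0 of 9 passed in retina (median 0.01) and 0 of 8 in rods (median -0.50). The immediate early factor Junb shared the low control library 2, at 88.6, 49 and 148.4 in control against 143.5, 75.1 and 130.3 in Pkm2 Rodko retina, Myc lay between 9.6 and 16.3 in retina, and Cebpb between 4.6 and 9.9.

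Of 24 genes of reactive glia, 0 passed in retina (median -0.08) and 0 of 19 in rods (median -0.52). Vim, a filament partner of Gfap, had 1751.3, 1345 and 2046.7 in control and 1562.3, 1536.5 and 1614.4 in Pkm2 Rodko retina. The adhesion receptor Cd44 had 301, 139.6 and 266.8 against 186.7, 189.9 and 255, and Lcn2, an iron-binding protein of reactive astrocytes, 140.3, 79.9 and 193.9 against 102.3, 109.4 and 144.1. In each of these 3 the controls enclosed the Pkm2 Rodko libraries, and control library 2 was again the lowest. None of 5 further endothelin genes passed in retina (median -0.32) and none of 4 in rods (median -0.24), with the ligand Edn1 at 46.13 ± 4.90 against 37.77 ± 12.4, the receptor Ednra at 27.7 ± 10.3 against 19.07 ± 1.04 and the converting enzyme Ece1 at 965.4 ± 63.1 against 922.5 ± 9.56 in retina (SD, n = 3).

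None of 13 fibroblast growth factor genes passed in retina (median -0.05) or rods (median -0.51). Fgf1 lay at 1152 ± 75.0 against 1072 ± 97.8, the receptor Fgfr1 at 748.5 ± 165 against 696.8 ± 50.7 and the feedback inhibitor Spry2 at 978.7 ± 135 against 1043 ± 53.4 in retina (SD, n = 3). None of 15 stress and cell death genes passed in retina (median -0.09) and none of 12 in rods (median -0.08). Ddit3, the endoplasmic reticulum stress factor, was even at 847.7 ± 74.0 against 834.4 ± 57.1, Atf3 lay at 156.0 ± 32.0 against 148.3 ± 17.2 and the cell cycle inhibitor Cdkn1a at 96.57 ± 27.9 against 85.27 ± 12.7 in retina. The low level in control library 2 reached beyond the members in the retina. There it was the lowest control for 20 of 24 reactive glia genes, 8 of 9 genes that Stat3 induces and 10 of 15 stress genes. It was also the lowest for 8 of 8 pigment epithelium, 9 of 10 microglia and 7 of 10 Müller glia markers. For amacrine and rod markers the counts were 3 of 8 and 1 of 10, beside the 34.8% over all genes. In rods this was less general: control library 2 was the lowest for 11 of 19 reactive glia genes, 4 of 8 genes that Stat3 induces and 7 of 12 stress genes. Marker counts in rods were 6 of 8 for pigment epithelium, 6 of 10 for microglia and 2 of 10 for Müller glia. They were 0 of 8 for amacrine, 0 of 8 for bipolar and 5 of 10 for rod markers, beside 33.8% over all genes.

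Markers of some other cells were also low in control library 2 of the retina, and those of others were not. Summed deposited values of the 10 microglia markers were 1574.8, 774.9 and 1581 in control and 1127.7, 939.6 and 1071.4 in Pkm2 Rodko retina, and those of the 8 pigment epithelium markers were 7763.1, 1934.4 and 11561.2 in control and 7935.3, 10232.9 and 3691.9 in Pkm2 Rodko retina. Control library 2 was the lowest of the 6 in both sums, and its Müller glia sum of 86777.5 was the lowest of the controls (94395.8 and 91793.5 in the others) and above all Pkm2 Rodko libraries (76875.2 to 85994.2). The rod and amacrine sums went the other way among the controls, with control library 2 the highest. In control libraries 1 to 3 the rod sum was 1.02988e+06, 1.18309e+06 and 1.00415e+06, and the amacrine sum 18451.2, 18703.3 and 17887.4. None of the markers was at 0 in a whole group. Ednrb, which pigmented cells also express, ranked close to the pigment sum, highest in control library 3 and lowest in control library 2 and Pkm2 Rodko library 3. Edn2 did not share that order, since Pkm2 Rodko library 3 had the second lowest pigment sum and the third highest Edn2 value. Their part in the members' values was not tested.

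**Figure D5:**
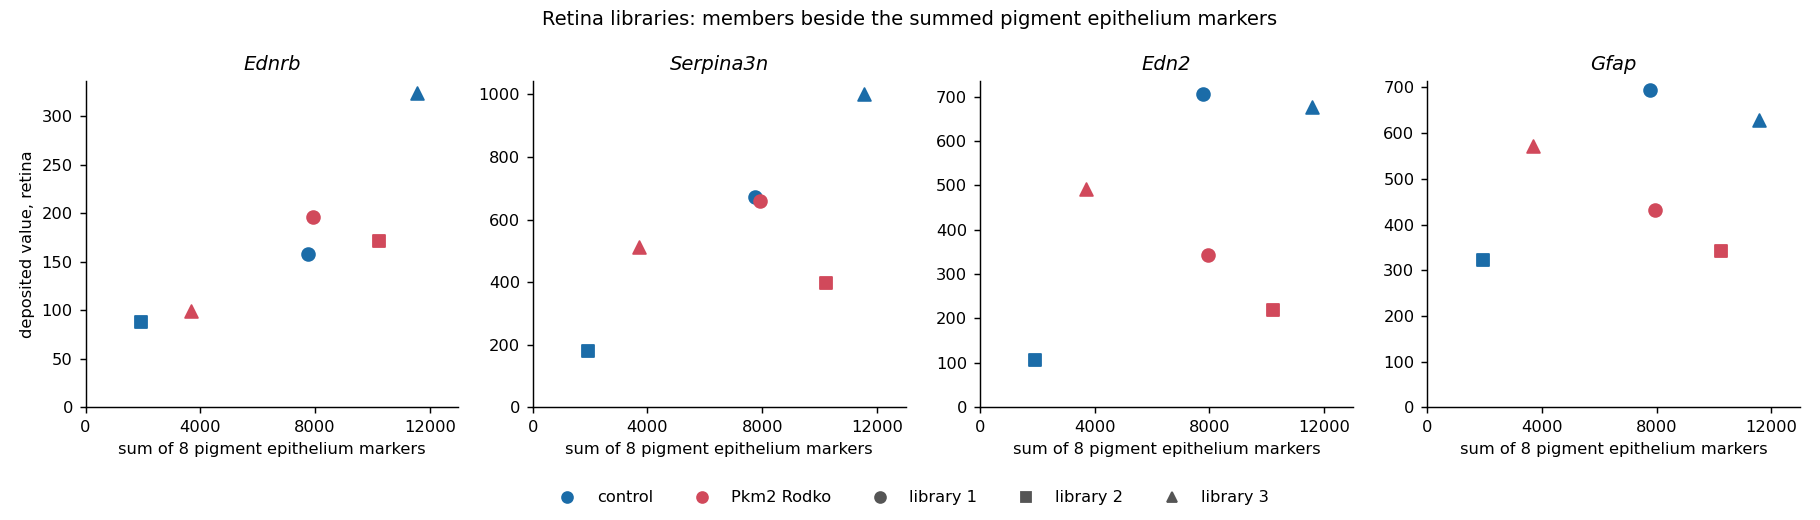
The deposited values of Ednrb, Serpina3n, Edn2 and Gfap in the 6 retina libraries are plotted against the summed deposited value of 8 pigment epithelium markers in the same library, blue for control and red for Pkm2 Rodko with shapes for the number. Ednrb runs from 87.4 at the lowest sum (1934.4) to 324.2 at the highest (11561.2), whereas Edn2 and Gfap of Pkm2 Rodko library 3 lie high at a low sum.

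Genes with the most similar profiles over the 12 libraries were sought for 3 members, by the smallest root mean square difference between log2 profiles each centred on its own mean. Nearest to Edn2 were Jak3 (0.36 log2 units), Scube1 (0.38) and A930014E10Rik (0.46). Jak3, a cytokine receptor kinase, ranged from 6.4 to 64.3 in retina and from 4.3 to 35.9 in rods, with 47.7, 6.4 and 64.3 in control retina. Nearest to Gfap were Efemp1 (0.23), Osmr (0.26) and Osbpl5 (0.27), of which Osmr, the receptor of oncostatin M, ranged from 128.7 to 271.8 in retina and from 5.4 to 13.9 in rods. These likenesses to Gfap rest largely on the gap between fractions. Nearest to Stat3 were Gm15983 (0.12), Agtpbp1 (0.14) and Slc25a20 (0.16). Gm15983 ranged from 924.3 to 1452.3 in retina and from 750.7 to 1396.3 in rods, in step with Stat3.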

How the data were processed

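The deposited table held 12 libraries of polyA RNA. The submitters' processing notes name CASAVA 1.8.2, HISAT2, DESeq2, edgeR and build GRCm39; the counting tool, annotation and strand setting are not given in the sources used here. The deposited signal values were reads that the authors had divided by a size factor set apart for each fraction, and rounded to 1 decimal. Reads were recovered from the value of 1 read, and 100.0% of values came out whole within 0.1 read.

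Genotypes were compared within a fraction by limma 3.58.1 with a variance trend on log2(value + 1), over genes with a mean of at least 1 in 1 genotype, with Benjamini-Hochberg adjustment at 0.05; fold changes on this scale understate the change of low genes. Fractions, and the difference of genotype differences, were compared in 1 fit of 4 group means on recovered reads scaled by TMM. The count test asked for by the recovered reads, edgeR 4.0.16, called 1 gene in retina and 4 in rods; DESeq2 1.42.0 was a further alternative. The procedure was also run on simulated counts with the same spread setting for all genes and no effect shared by a library. Only genes above a minimum of reads were changed there. The simulation therefore cannot speak for members with a wide spread between libraries or with few reads. Members and gene lists were chosen with earlier results of these data known. All 10 members are named, with the leading 3 genes of each pathway list and the 3 nearest profiles of Gfap, Edn2 and Stat3 (genes with a mean of at least 10); others were chosen after their values were seen. Intervals are 95% confidence intervals.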

Additional observations from a re-analysis of the deposited data

How the results depend on the processing

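No genotype alternative called a member in either fraction. In retina, Cebpd turned to -0.090 with edgeR (TMM), -0.079 (RLE), -0.073 with DESeq2 and -0.27 without both libraries numbered 2, and Serpina3n to -0.27, -0.25, -0.24 and -0.50. All genes called in retina fell from 1 to 0 with 10 reads in every library, with the replicate block and without both libraries numbered 2; in rods they went from 4 to 7 with DESeq2, 17 in 1 fit of all 12 libraries, 8 with the replicate block, and 0 with no variance trend or without both libraries numbered 2. The replicate number did not pair the genotypes: deviations of same-numbered libraries correlated from -0.208 to 0.0644, and 1 of 6 correlated best with its own number. Rods against retina, Stat3 turned to -0.0030 by total reads and -0.048 on deposited values, and Cebpd to -0.28 and -0.32. The median gene moved from -0.37 to -0.76 and -0.80, and both members stayed above it. The genes called dropped from 15084 to 9526 with 10 reads in every library because fewer were tested. With genotype and number as a block the members called went from 4 to 7, a count without its share over all genes. The difference of differences turned to 0.088 for Ednrb and -0.36 for Lif with edgeR.

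Leaving out 1 library at a time gave, in retina, 0 to 4 genes called (4 without control library 3, 2 without control library 2 and 0 without any other), Edn2 -1.05 to 0.31, Serpina3n -0.68 to 0.55, Bcl3 -0.40 to 0.25, Ednrb -0.59 to 0.34 and Cebpd -0.32 to 0.49; in rods 2 to 6 genes called (6 without control library 3, 2 without control libraries 1 or 2 or Pkm2 Rodko library 3), Edn2 -1.33 to 0.20, Socs3 -1.02 to 0.11, Ednrb -0.52 to 0.16 and Fgf2 -0.92 to 0.015; between fractions 4 to 7 members called, Cebpd -0.16 to 1.04 and Edn2 -0.995 to 0.86; and for the difference of differences Fgf2 -0.56 to 0.44, Edn2 -1.16 to 0.70, Ednrb -0.53 to 0.41, Stat3 -0.32 to 0.22, Socs3 -0.58 to 0.53 and Lif -0.45 to 0.99. The 7 members came without control rod library 2. Except for the settings named, the cause was not tested. Lif rested on 0 to 37 reads a library and Bcl3 on 6 to 26, which limits the precision of their values.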

Other observations

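When profiles were centred within each fraction, which removes the gap between rods and retina and was chosen after the values were seen, the 3 genes nearest to Edn2 were ENSMUSG00000121111, Jak3 and Fgf2os, the antisense transcript annotated within Fgf2. Fgf2os had 173.4, 13.9 and 111.5 in control retina and 76, 71.4 and 89.2 in Pkm2 Rodko retina, and 220.4, 34.3 and 234.2 in control rods and 91.2, 60 and 160 in Pkm2 Rodko rods. As for Edn2, control libraries 1 and 3 were above all Pkm2 Rodko libraries and control library 2 was below them all in both fractions. In GENCODE vM21 Fgf2os lies on the opposite strand of Fgf2 and shares no exon sequence with it. The annotation that the authors counted on is not given in the sources used here.

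Nearest to Gfap on that scale were Fcer1g, an immune receptor subunit of microglia (27.4 to 58.4 in retina and 1.1 to 4.9 in rods), Pifo (11.8 to 26.3 and 18.2 to 46.1) and S1pr3, a sphingosine phosphate receptor of glia (449.8 to 827 and 39.7 to 67.9). Edn3, a further endothelin looked up after its value was seen, had 141.2, 55.4 and 712 in control retina and 241.6, 240.6 and 48 in Pkm2 Rodko retina, the same order over the 6 libraries as the pigment cell gene Pmel (1171.8, 268.6 and 4626.9 in control and 1743.8, 1590.8 and 233.2 in Pkm2 Rodko).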
